A study of Homo sapiens with 6 samples.

Results

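The genes described here encode the folding machinery of the endoplasmic reticulum (ER) and the unfolded protein response. They were followed after knockdown of PARP1 in HK-2, an established cell line derived from the proximal tubule of a human kidney. The 35 members were taken by gene symbol from the deposited count table of 30403 genes, and all 35 were found and passed the filter on low counts. They were split into an arm of 22 chaperones and degradation genes, an arm of 7 genes made of ATF4 and its targets, 4 genes that encode the stress sensors and XBP1, and 2 chaperones of collagen. The study compared 3 libraries from cells transfected with a PARP1 shRNA plasmid (shPARP1) with 3 libraries from cells transfected with a control plasmid (shCtrl). All cells were kept in medium with fetal bovine serum, received Lipofectamine 2000, and were harvested after 48 h. Transfection was transient, the cells were not stated to be selected, and neither the hairpin sequences nor their number are given by the labels.

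Secreted and membrane proteins enter the ER as unfolded chains. HSP70 and HSP90 chaperones, the lectins calnexin and calreticulin, and the protein disulfide isomerases fold them there, and chains that fail are returned to the cytosol and degraded. When unfolded chains accumulate, the sensors IRE1 (gene ERN1), ATF6 and PERK (gene EIF2AK3) signal to the nucleus. ATF6 and XBP1, whose mRNA is spliced by IRE1, drive genes for chaperones and degradation, whereas PERK raises translation of ATF4, which drives genes for amino acid supply and stress control. Proximal tubule cells make many membrane transporters and receptors, which fold in the ER. Counts per gene do not separate the spliced from the unspliced XBP1 mRNA and do not measure translation.

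Each shPARP1 library, at 29387853 to 32809303 counts, was deeper than each shCtrl library, at 24429683 to 26269194 counts. These are bulk samples, in which fewer cells of a type and less RNA per cell cannot be told apart. PARP1, the targeted gene, was at 262, 263 and 259 CPM (counts scaled to library size with TMM factors) in shCtrl and at 26.9, 26.2 and 28.8 CPM in shPARP1. Of 12 markers of the tubular epithelium 8 passed the filter, and the list summed to 2126 to 2166 CPM in shCtrl and 1886 to 1926 CPM in shPARP1. Its members moved both ways: PAX8 was at 414 to 422.5 CPM in shCtrl and 338 to 350.1 CPM in shPARP1, CDH6 at 435 to 453.5 against 209 to 218 CPM, and KRT18 at 238.5 to 241 against 359 to 364 CPM. In the same list ANPEP, LRP2, CUBN and SLC34A1 were at 0.501 CPM or less. GGT1, DPP4 and AQP1 passed the filter. GGT1 was at 274.4 to 300.7 CPM in shCtrl and 229.9 to 244.1 CPM in shPARP1. DPP4 was at 25.72 to 26.97 against 15.41 to 17 CPM, and AQP1 at 1.922 to 2.499 against 1.394 to 1.847 CPM. Of the endothelial markers none passed the filter, and of the leukocyte and fibroblast markers CD14 and LUM did. The summed leukocyte markers went from 7.53 to 8.98 CPM in shCtrl to 2.63 to 3.26 CPM in shPARP1, and the summed fibroblast markers from 13.3 to 16.03 CPM to 7.225 to 8.395 CPM. Of the plasma cell markers JCHAIN, MZB1 and POU2AF1 were at 0.384 CPM or less, while SDC1, which epithelial cells also express, was at 647 to 711 CPM in shCtrl and 417 to 438 CPM in shPARP1. Mitochondrial genes took 12.7% ± 0.600 (SD, n = 3) of the shCtrl counts and 10.4% ± 0.434 of the shPARP1 counts. The part of these differences in the results below was not tested.

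Most members changed, in both directions. Of the 35 members, 17 fell and 9 rose at an adjusted p under 0.05 in edgeR's quasi-likelihood test. Over all 16040 genes tested, 55.7% changed, 28.5% lower and 27.3% higher. In the chaperone and degradation arm 13 of 22 members fell and 4 rose, with a median log2 fold change of -0.28. In the ATF4 arm 3 of 7 rose and 1 fell, with a median of 0.12, and the difference between the arms was not tested. The median over all genes tested was -0.01. In 28 of the 35 members the shCtrl and shPARP1 libraries had separate CPM ranges, as in 60.1% of all genes tested. The knockdown libraries were all lower in 19 members (30.4% of all genes) and all higher in 9 (29.7% of all genes). Only DNAJB9 changed at least 2-fold. It also passed the test, and 6.48% of all genes tested did both.

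**Figure D1:**
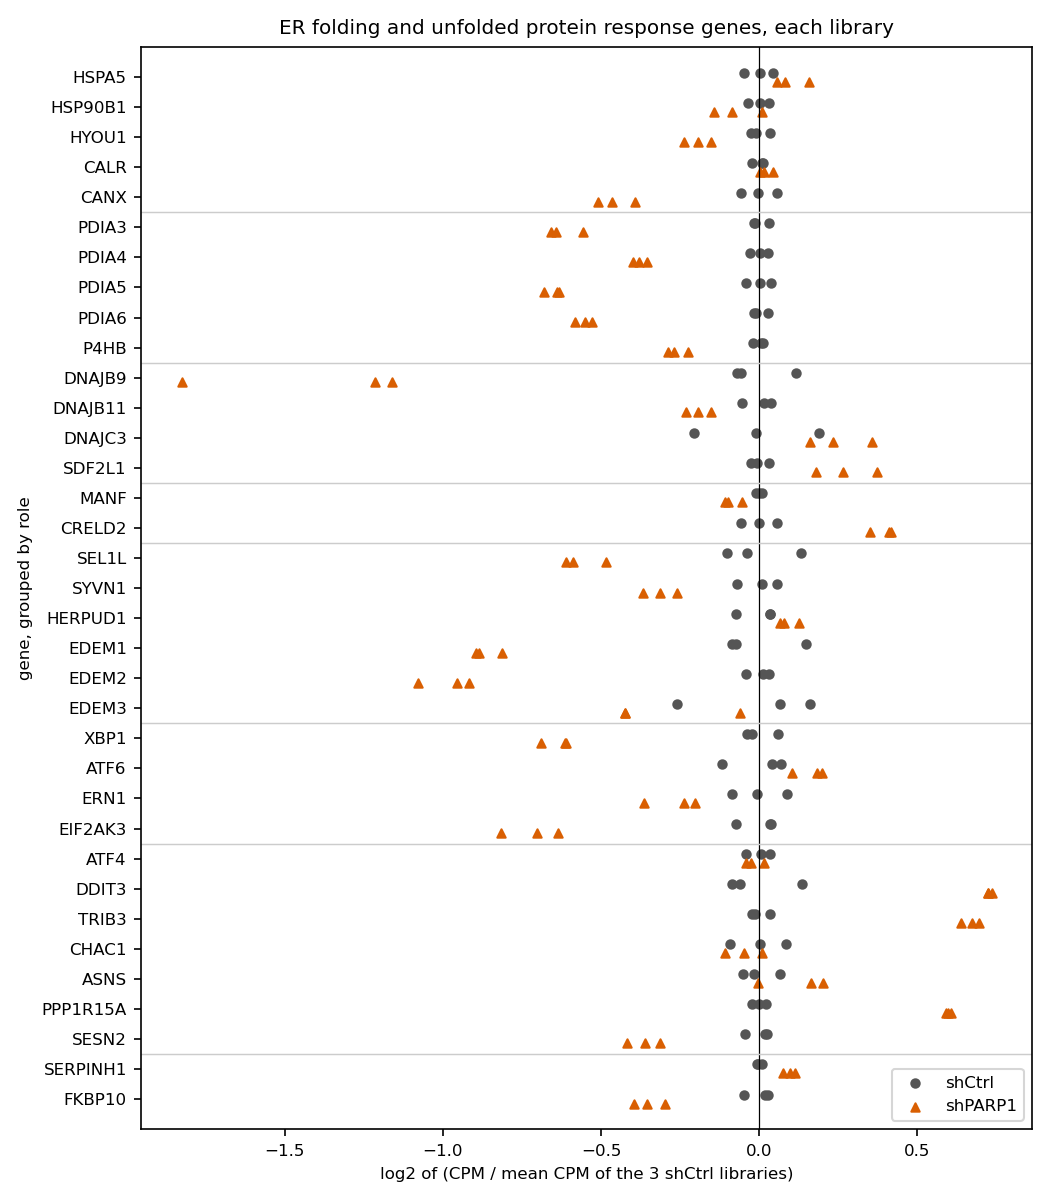
CPM of each member in each library, as log2 of the ratio to the mean of the 3 shCtrl libraries (x axis), with genes on the y axis in blocks of one role. Circles are shCtrl and triangles shPARP1 libraries. The triangles lie left of the circles for all 5 disulfide isomerases and right of them for DDIT3, TRIB3 and PPP1R15A.

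The protein disulfide isomerases, which form and rearrange disulfide bonds in folding chains, all fell. PDIA3, the isomerase that works with calnexin and calreticulin on glycoproteins, was at 894, 922 and 893 CPM in shCtrl and at 578, 573 and 613 CPM in shPARP1. Its highest knockdown library lay far below its lowest control library (log2 fold change -0.62, SE 0.03, adjusted p = 1.12e-24). PDIA6, which binds the chaperone BiP, was at 784, 787 and 808 CPM against 529.8, 542 and 550.1 CPM (log2 fold change -0.55, adjusted p = 6.19e-23). PDIA5 had the largest fitted fall of the family, from 109 ± 2.94 CPM to 69.2 ± 1.31 CPM (SD, n = 3 each; log2 fold change -0.65, adjusted p = 1.63e-19). Per length it stood at 52.4 FPKM (fragments per kilobase, scaled to library size) in shCtrl, against 1197 FPKM for P4HB.

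PDIA4, an isomerase of the BiP complex, fell by 23.0%, from 1013, 1033 and 992 CPM to 792, 768 and 779 CPM (log2 fold change -0.38, adjusted p = 1.32e-16). P4HB, the founding member of the family and the beta subunit of collagen prolyl 4-hydroxylase, fell by 16.5%, from 3626, 3603 and 3548 CPM to 3075, 2979 and 2941 CPM (log2 fold change -0.26, adjusted p = 2.38e-12). No control library of either gene overlapped a knockdown library. With an offset for gene length and GC content the fall of P4HB was smaller, at -0.14 on the log2 scale, and it still passed the test. Summed over the 5 isomerases, the libraries held 6409.5 ± 51.4 CPM in shCtrl and 4975 ± 61.2 CPM in shPARP1.

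The HSP70, HSP90 and lectin chaperones changed less. HSPA5 encodes BiP, the HSP70 of the ER and the usual readout of the unfolded protein response, and it was at 1161, 1194 and 1120.0 CPM in shCtrl and at 1205, 1227 and 1292 CPM in shPARP1. The groups did not overlap, but the rise was only 7.16% (log2 fold change 0.10, SE 0.03, adjusted p = 0.00440), and it missed the threshold without shCtrl replicate 3 (0.08, adjusted p = 0.0651) or shPARP1 replicate 3 (0.07, adjusted p = 0.0561). CALR, the soluble lectin calreticulin, was at 4662, 4566 and 4672 CPM against 4782, 4644 and 4683 CPM, with overlapping groups (log2 fold change 0.02, 95% interval -0.03 to 0.07, adjusted p = 0.516). It passed as higher on both FPKM scales (0.07, adjusted p = 0.0182 and 0.0149), and its sign turned to -0.03 with the length and GC offset.

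CANX, the membrane lectin calnexin that shares substrates with calreticulin, was the member of this group with the largest fall. It was at 422, 437 and 456 CPM in shCtrl and at 308, 317 and 334 CPM in shPARP1, and in groups that lay well apart it fell by 27.1% (log2 fold change -0.46, SE 0.03, adjusted p = 2.68e-17). HYOU1, the nucleotide exchange factor of BiP, fell from 575, 557 and 552 CPM to 505, 490.4 and 476 CPM (log2 fold change -0.19, adjusted p = 5.45e-07). That call ended with the length and GC offset, where the value was -0.05 (adjusted p = 0.0514). HSP90B1, the HSP90 of the ER known as GRP94, went from 535 ± 12.0 CPM to 509 ± 27.2 CPM with overlapping groups (log2 fold change -0.07, adjusted p = 0.0629). It passed the test in 7 of 18 alternatives, always lower. Summed over the 5 genes, the libraries held 7326 ± 22.7 CPM in shCtrl and 7263 ± 72.5 CPM in shPARP1.

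The co-chaperones of BiP split evenly. DNAJB9, a J-domain protein that restrains IRE1, was at 7.73, 7.67 and 8.73 CPM in shCtrl and at 3.46, 2.27 and 3.59 CPM in shPARP1 and so fell by 61.3% (log2 fold change -1.37, SE 0.15, adjusted p = 5.23e-12). This was the deepest fall of the 35 members, at a low level of 2.57 FPKM in shCtrl, and it measured -0.82 on the log2(FPKM + 1) scale. DNAJB11, the J-domain partner that brings chains to BiP, fell by 12.4%, from 154 ± 5.03 CPM to 134 ± 3.72 CPM (adjusted p = 3.36e-05). SDF2L1, which joins DNAJB11 in a complex with BiP, moved the other way, from 43.0, 43.6 and 44.8 CPM to 56.8, 49.6 and 52.6 CPM (log2 fold change 0.27, adjusted p = 2.15e-05).

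DNAJC3, the J-domain protein p58IPK that inhibits PERK, went from 9.32, 12.3 and 10.7 CPM to 13.8, 12.6 and 12.0 CPM. The groups overlapped, and the call (log2 fold change 0.25, adjusted p = 0.0254) ended in 6 alternatives, among them DESeq2 (0.26, adjusted p = 0.0553), log2(FPKM + 1) (0.20, adjusted p = 0.0659) and leaving out shCtrl replicate 1 (0.16, adjusted p = 0.209), shCtrl replicate 3 (0.25, adjusted p = 0.0551) or shPARP1 replicate 1 (0.20, adjusted p = 0.136). CRELD2, a small ER protein with EGF-like repeats that is induced under ER stress, rose by 31.3%, from 75.7, 78.8 and 72.9 CPM to 96.7, 101 and 101 CPM (log2 fold change 0.39, adjusted p = 2.66e-11). All 3 knockdown libraries of CRELD2 lay above the controls. MANF, a second small stress-induced ER protein, was at 141 ± 0.887 CPM and 132 ± 2.68 CPM (log2 fold change -0.09, adjusted p = 0.0566). It passed the test as lower in 7 of 18 alternatives.

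Genes of ER-associated degradation were lower for 4 of 6 members, and none rose. EDEM2, a mannosidase-like protein that starts the trimming of misfolded glycoproteins, was at 94.9, 98.5 and 99.8 CPM in shCtrl and at 50.5, 46.3 and 51.7 CPM in shPARP1. It fell by 49.4%, far outside the spread of either group (log2 fold change -0.98, SE 0.05, adjusted p = 1.6e-25). EDEM1, the stress-induced relative of EDEM2, was at 22.8, 26.9 and 23.1 CPM against 13.8, 13.0 and 13.1 CPM, again with no overlap (log2 fold change -0.86, adjusted p = 1.32e-13). EDEM3, the remaining family member, was the scarcest of the EDEM genes, at 0.520 FPKM in shCtrl. Its groups overlapped at 4.19 ± 0.615 CPM and 3.42 ± 0.516 CPM (log2 fold change -0.29, 95% interval -0.62 to 0.03, adjusted p = 0.125). It passed the test without shCtrl replicate 2 (-0.40, adjusted p = 0.0466).

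SEL1L and SYVN1 encode the adaptor and the ubiquitin ligase (HRD1) of the main degradation complex. SEL1L was at 33.2, 34.7 and 39.1 CPM in shCtrl and at 23.7, 23.3 and 25.5 CPM in shPARP1 (log2 fold change -0.56, adjusted p = 4.27e-10). SYVN1 fell from 76.1 ± 3.34 CPM to 61.2 ± 2.30 CPM (log2 fold change -0.31, adjusted p = 1.01e-07), or by 0.19 on the log2 scale with the length and GC offset. HERPUD1, a membrane protein that organises this complex and is strongly induced by ER stress, was at 55.2, 59.5 and 59.5 CPM against 61.4, 60.8 and 63.4 CPM. Its groups did not overlap, but the difference missed the threshold (log2 fold change 0.09, adjusted p = 0.115). It passed as higher on both FPKM scales (adjusted p = 0.0464 and 0.0461) and with the length and GC offset (0.17, adjusted p = 0.000524).

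Among the sensors, the PERK gene and XBP1 were lower. XBP1, the transcription factor of the IRE1 branch, was at 117, 125 and 118 CPM in shCtrl and at 74.3, 78.5 and 78.4 CPM in shPARP1, and without overlap it fell by 35.7% (log2 fold change -0.64, SE 0.04, adjusted p = 2.85e-19). EIF2AK3, the kinase PERK, went from 9.73, 10.5 and 10.5 CPM to 6.59, 6.29 and 5.81 CPM (log2 fold change -0.72, SE 0.11, adjusted p = 1.35e-07). On the log2(FPKM + 1) scale its fall was -0.40. ERN1, the kinase and nuclease IRE1, was the scarcest member at 0.477 FPKM, and went from 5.38 ± 0.325 CPM to 4.47 ± 0.260 CPM (log2 fold change -0.27, 95% interval -0.55 to 0.02, adjusted p = 0.107). ATF6, the sensor that is itself cleaved into a transcription factor, was slightly higher, from 43.9, 44.8 and 39.3 CPM to 45.8, 48.4 and 48.9 CPM (log2 fold change 0.16, adjusted p = 0.0130). That call was lost without shCtrl replicate 3 (0.11, adjusted p = 0.148), shPARP1 replicate 2 (0.15, adjusted p = 0.0587) or shPARP1 replicate 3 (0.14, adjusted p = 0.0569).

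The ATF4 arm held the largest rises of the 35 members. DDIT3, the transcription factor CHOP, was at 15.9, 16.1 and 18.5 CPM in shCtrl and at 28.02, 27.8 and 27.8 CPM in shPARP1 (log2 fold change 0.73, SE 0.08, adjusted p = 3.39e-12). TRIB3, a pseudokinase induced by ATF4 and CHOP, was at 86.8, 89.7 and 86.2 CPM against 142, 136 and 139.6 CPM (log2 fold change 0.67, adjusted p = 5.31e-21). PPP1R15A, the phosphatase subunit GADD34 that reverses the PERK signal, rose from 108, 106 and 109 CPM to 164, 162 and 163 CPM (log2 fold change 0.60, adjusted p = 5.57e-20). All 3 knockdown libraries lay above all controls for each of these genes, by 65.4%, 58.9% and 51.5% in the fitted values.

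ATF4 itself and its remaining targets among the members did not follow them. The ATF4 mRNA was at 279, 284 and 269 CPM in shCtrl and at 273, 269 and 280.4 CPM in shPARP1, with overlapping groups (log2 fold change -0.02, 95% interval -0.09 to 0.05, adjusted p = 0.717). ASNS, asparagine synthetase, was at 19.1, 19.6 and 20.8 CPM against 19.8, 22.2 and 22.8 CPM (log2 fold change 0.12, 95% interval -0.04 to 0.28, adjusted p = 0.187). CHAC1, an enzyme that degrades glutathione, was at 8.91 ± 0.540 CPM and 8.61 ± 0.348 CPM (log2 fold change -0.05, 95% interval -0.26 to 0.17, adjusted p = 0.739). SESN2, a leucine sensor that is a target of both ATF4 and p53, fell instead, from 78.2, 77.8 and 74.5 CPM to 61.9, 57.6 and 59.8 CPM (log2 fold change -0.36, adjusted p = 1.86e-09). With the length and GC offset ATF4 was called lower (-0.09, adjusted p = 0.00392), which made the split of the arm 3 higher and 2 lower.

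The chaperones of collagen moved in opposite directions. SERPINH1 encodes HSP47, which binds the procollagen triple helix, and it was at 1060.1, 1052 and 1050.0 CPM in shCtrl and at 1139, 1110.3 and 1127 CPM in shPARP1. The 6.78% rise lay outside the narrow spread of the libraries (log2 fold change 0.09, SE 0.03, adjusted p = 0.00435), and it measured 0.26 with the length and GC offset. FKBP10, a prolyl isomerase for procollagen, fell from 836, 830.4 and 792 CPM to 667, 641 and 622 CPM (log2 fold change -0.35, adjusted p = 1.92e-14).

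**Figure D2:**
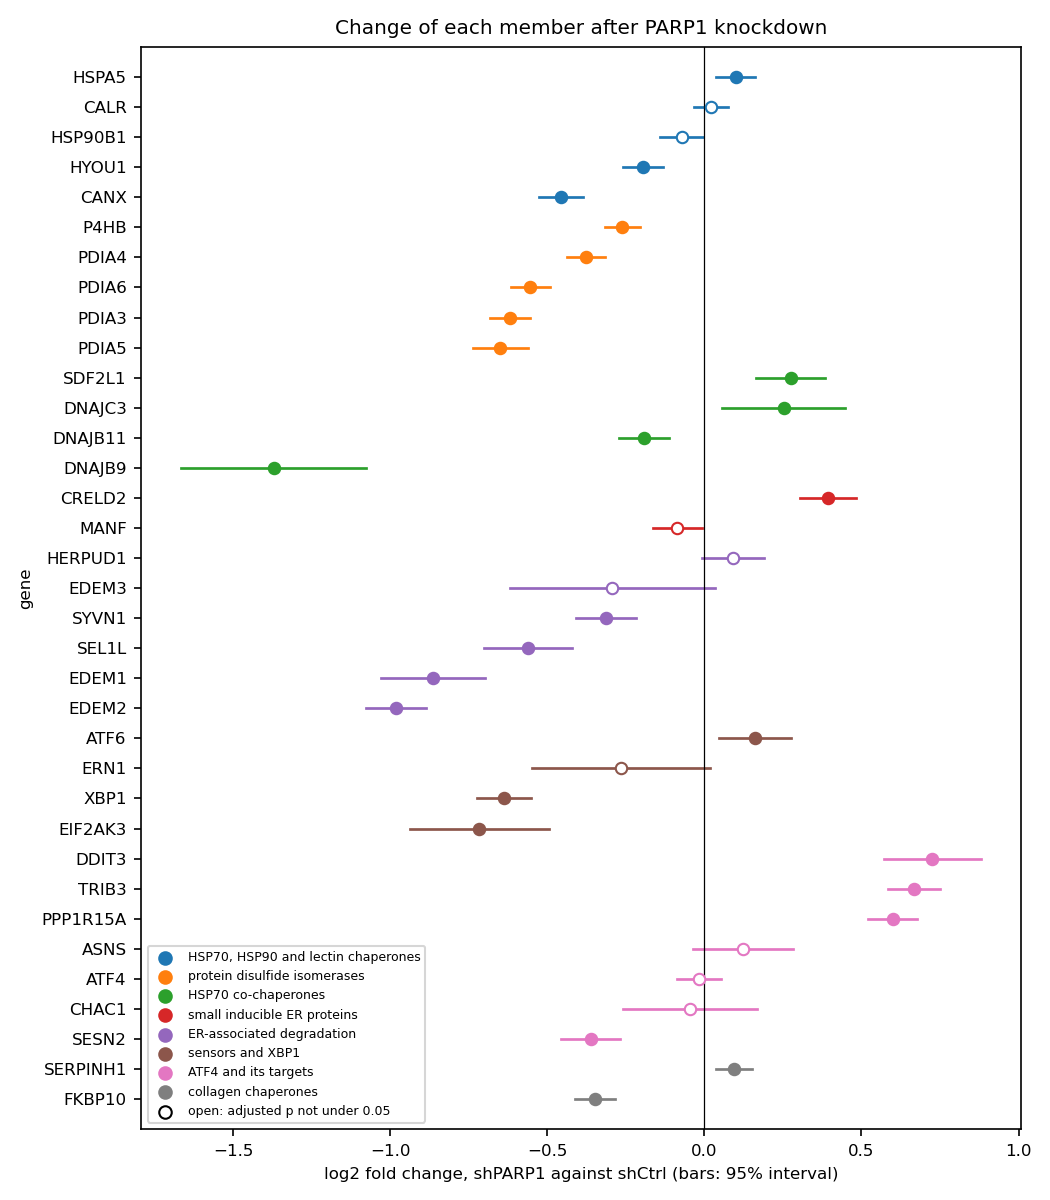
Log2 fold change of each member, shPARP1 against shCtrl (x axis), with 95% intervals as bars and genes on the y axis sorted within each role. Filled points passed the test at an adjusted p under 0.05. Values run from -1.37 for DNAJB9 to 0.73 for DDIT3.

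The levels of the members spanned most of the range of expressed genes. By mean FPKM in shCtrl, 9 members stood among the top 2% of the genes tested, from CALR at 2113 FPKM and P4HB at 1197 FPKM to HSP90B1 at 163 FPKM. At the other end, 5 members lay below the median gene, namely DNAJB9, EIF2AK3, DNAJC3, EDEM3 and ERN1. PDIA3 and PDIA6, at 210.3 ± 6.59 and 198 ± 4.09 FPKM, were neighbours in this order whose control values lay close together. SERPINH1 followed at 188 ± 2.01 FPKM. The chaperone and degradation arm summed to 14464 ± 36.9 CPM in shCtrl and 12887 ± 115 CPM in shPARP1, and so fell by 10.9%. Most of this fall in CPM lay in the 5 disulfide isomerases, from 6409.5 to 4975 CPM. The other roles of the arm changed less in CPM, and the small inducible ER proteins rose from 216 to 232 CPM. The ATF4 arm went from 595 ± 7.18 CPM to 694 ± 9.12 CPM, with the largest gains in CPM for TRIB3 and PPP1R15A.

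**Figure D3:**
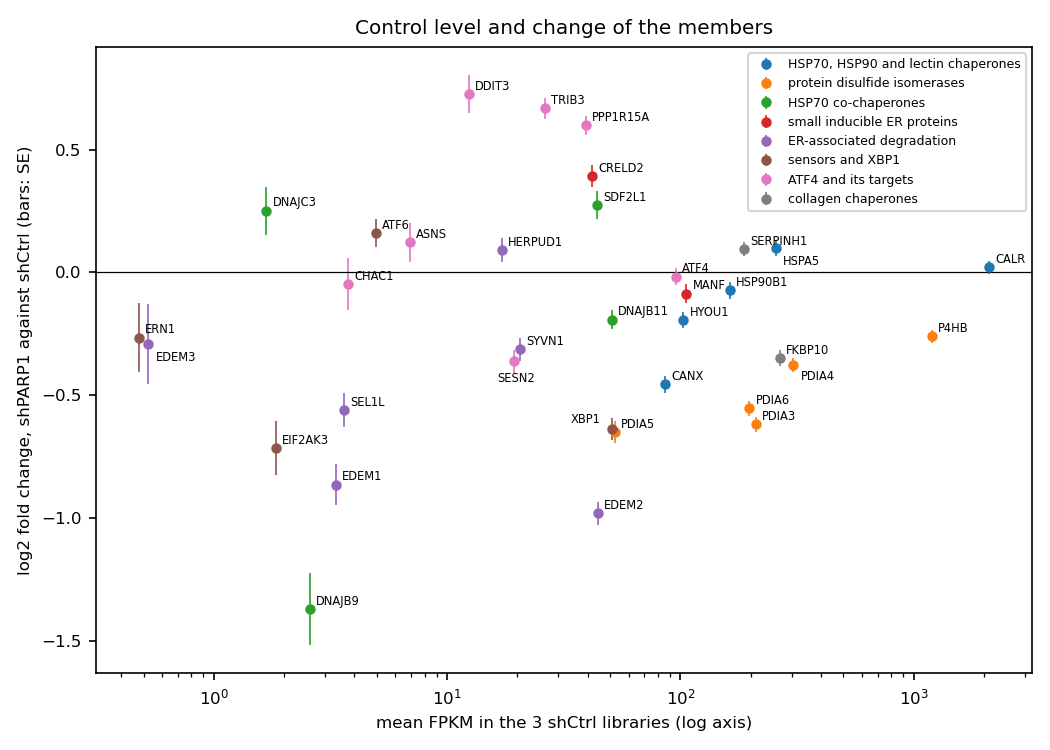
Mean FPKM in the 3 shCtrl libraries (x axis, log scale) against log2 fold change of each member with its SE (y axis), coloured by role. The most abundant members, CALR at 2113 FPKM and P4HB at 1197 FPKM, changed by 0.02 and -0.26, and the deepest fall, that of DNAJB9, lies at 2.57 FPKM.

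Promoter windows were then searched for the elements through which ATF6, XBP1 and ATF4 are known to act. RefSeq windows on GRCh38.p14, from 250 bases before to 50 bases after each annotated start, matched 33 of the 35 members, all but PDIA3 and FKBP10. The ER stress response element, ERSE, was searched on both strands as CCAAT and CCACG with any 9 bases between them. It occurred in 7 of the 33 members and in 0.0916% of all genes with a window. The members were HSPA5, HSP90B1, CALR, CANX, PDIA6, CRELD2 and XBP1. Their sites are shown on the gene strand with 5 bases on either side, the element in capitals, to set the elements beside the differing changes of their genes. In CALR, CRELD2 and the second site of HSP90B1 the element reads in reverse.
HSPA5: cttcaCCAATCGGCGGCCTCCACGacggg
CRELD2: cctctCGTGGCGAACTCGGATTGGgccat
CALR: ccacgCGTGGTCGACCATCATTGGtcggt
HSP90B1, first site: cctgaCCAATCGGAAGGAGCCACGcttcg
HSP90B1, second site: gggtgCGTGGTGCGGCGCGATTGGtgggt
CANX: cccggCCAATCTTCACACTCCACGaagaa
PDIA6: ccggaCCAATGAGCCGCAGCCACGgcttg
XBP1: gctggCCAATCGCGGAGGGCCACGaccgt

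Genes with the same element did not change alike. Of the 7 members with an ERSE, HSPA5 and CRELD2 rose, CANX, PDIA6 and XBP1 fell, and CALR and HSP90B1 did not pass the test. Over all genes tested 27.3% rose and 28.5% fell. Coordinates here and below are those of the printed stretches, flanking bases included, and distances run from the first base of the element to the start. The elements of HSPA5 (chr9:125241386-125241414, minus strand), PDIA6 (chr2:10812848-10812876, minus strand) and XBP1 (chr22:28800598-28800626, minus strand) began 66, 86 and 52 bases before the start, in the same orientation. Yet HSPA5 was at 0.10 on the log2 scale, PDIA6 at -0.55 and XBP1 at -0.64. The element of CRELD2 (chr22:49918549-49918577, plus strand), whose gene rose by 0.39, began 80 bases before the start. The CALR element (chr19:12938379-12938407, plus strand) began 225 bases before the start, and the single CANX element (chr5:179698773-179698801, plus strand) began 189, 151 or 9 bases before the start, depending on the annotated start taken. With the last of these it spans the start. The HSP90B1 stretches lie at chr12:103930211-103930239 and chr12:103930316-103930344 on the plus strand.

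For HSPA5 the 250 bases before the start (chr9:125241344-125241593, minus strand) are given in full, because this promoter is commonly used as a reporter of the response, with the one full match in capitals.
HSPA5 upstream: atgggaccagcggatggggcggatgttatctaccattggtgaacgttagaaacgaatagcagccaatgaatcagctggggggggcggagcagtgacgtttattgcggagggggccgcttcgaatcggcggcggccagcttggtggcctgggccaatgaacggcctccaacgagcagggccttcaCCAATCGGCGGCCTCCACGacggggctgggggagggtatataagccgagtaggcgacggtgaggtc
The shorter element ERSE-II, searched as ATTGG and CCACG with any 1 base between them, occurred in HYOU1, SDF2L1 and HERPUD1, against 0.0696% of all genes. SDF2L1 (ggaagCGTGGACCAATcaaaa, chr22:21642109-21642129, plus strand) rose, HYOU1 (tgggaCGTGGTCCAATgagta, chr11:119057269-119057289, minus strand) fell, and HERPUD1 (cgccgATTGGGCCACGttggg, chr16:56932020-56932040, plus strand) did not pass the test. The XBP1 element UPRE, searched as TGACGTGG, occurred in HYOU1 alone among the members and in 0.927% of all genes, and there it overlapped the second ERSE-II.

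The composite element of ATF4 and C/EBP factors, CARE, was searched as TGATGNAA. It occurred in ASNS (aggcaTGATGAAActtcc, chr7:97872464-97872481, minus strand), CHAC1 (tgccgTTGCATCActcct, chr15:40953257-40953274, plus strand) and HERPUD1, against 4.46% of all genes. None of the 3 passed the test. The called members of the ATF4 arm, DDIT3, TRIB3, PPP1R15A and SESN2, had no match in these windows. Of the 12 members with any of the 4 elements, 3 rose, 4 fell and 5 did not pass the test, and of the 21 members with none, 6 rose, 11 fell and 4 did not. These counts stand beside 27.3% higher and 28.5% lower over all genes tested, and the difference between members with and without an element was not tested. A match is a string of letters and was not measured as a bound site.

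**Figure D4:**
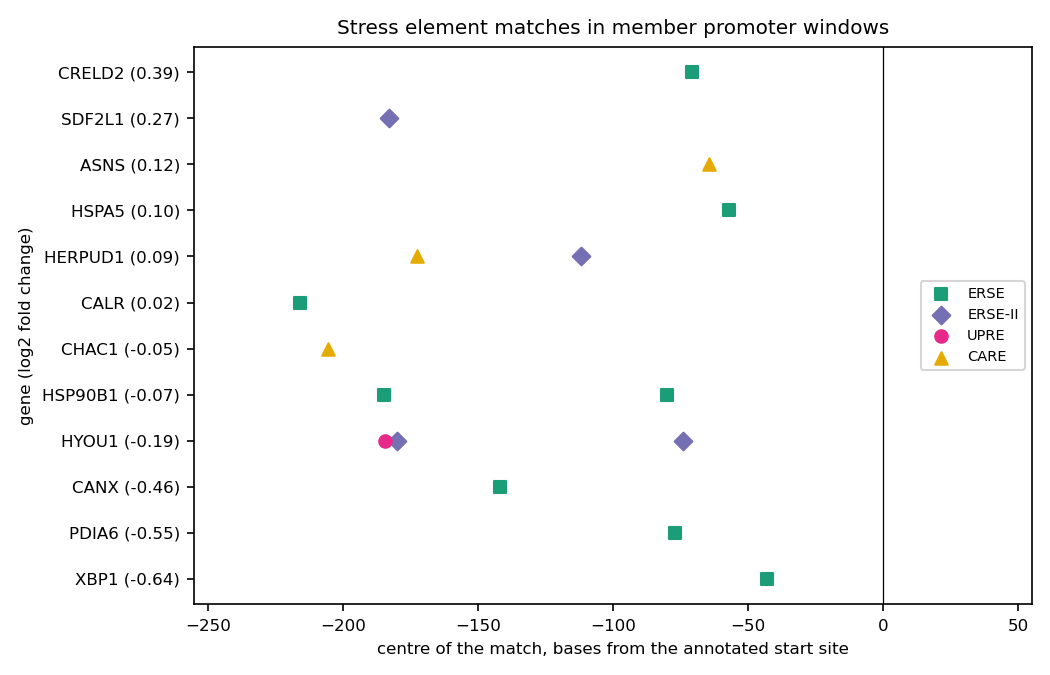
Centre of each match in bases from the annotated start site (x axis) for the 12 members with a match, sorted by log2 fold change (in brackets on the y axis). For CANX the first-listed start is used. ERSE matches, drawn as squares, occur from XBP1 at -0.64 to CRELD2 at 0.39.

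Other genes of the pathway were read from lists of the same kind, and their counts stand beside 28.5% lower and 27.3% higher over all genes tested. Of 21 further ER oxidoreductases and prolyl isomerases 14 fell and 2 rose, with a median log2 fold change of -0.24. QSOX1, a sulfhydryl oxidase, fell by 0.65 on the log2 scale, FKBP9 by 0.86 and ERP29 by 0.51, while the peroxiredoxin PRDX4 rose by 0.70. Of 13 other partners of BiP and enzymes of the glucosidase cycle 7 fell and 1 rose. UGGT1, the folding sensor that returns glycoproteins to calnexin, was at -0.58 and its counterpart GANAB, the glucosidase II subunit that releases them, at 0.90. Of 20 genes of the translocon, signal peptidase and oligosaccharyltransferase 15 fell and 4 rose, with the oligosaccharyltransferase subunits RPN2 (-0.77) and DDOST (-0.53) lower and the translocon subunit SEC61B (0.70) higher. Of 20 further degradation genes 9 fell and 6 rose, with the lectin OS9 at -0.74 and the cofactor UFD1L at 0.73, and there the share that rose was near that of all genes.

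Outside the members more regulators fell than rose. More genes rose than fell in a list of further ATF4 targets, but not in the list of tRNA synthetases, which are ATF4 targets as well. Of 15 further regulators 7 fell and 4 rose, and CREB3L1, a relative of ATF6 that drives secretory and collagen genes, went from 218 ± 5.00 CPM to 68.5 ± 1.95 CPM (log2 fold change -1.67, adjusted p = 2.23e-39). ATF6B, the paralog of ATF6, was at -0.54, while CREB3 was at 0.62 and TRAF2 at 0.55. Of these regulators 26.7% rose and 46.7% fell, beside 27.3% and 28.5% over all genes tested. Of 24 tested further ATF4 targets 13 rose (54.2%) and 6 fell (25%). The 4 called genes of smallest p-value were the transcription factor CEBPG at 0.95, the receptor VLDLR at -1.43, SLC38A2 at -0.70 and STC2 at -0.48. The list of cytosolic tRNA synthetases, which also holds XPOT, had 4 higher and 4 lower of 13 genes, near the shares over all genes tested (27.3% and 28.5%).

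Heat shock genes outside the ER were higher for 18 of 20, against 27.3% of all genes tested, and none was called lower. The lowest log2 fold change in the list was -0.38. In 1 of the 20 genes all knockdown libraries lay below all controls, as in 30.4% of all genes tested. The median log2 fold change of that list was 0.35, beside -0.28 for the ER chaperone and degradation arm, and the difference between the lists was not tested. HSP90AA1, the inducible cytosolic HSP90, was chosen after its values were seen and went from 354 ± 27.5 CPM to 911 ± 52.3 CPM (log2 fold change 1.36), beside -0.07 for its ER relative HSP90B1. AHSA1, an activator of cytosolic HSP90, was at 1.24 and the mitochondrial co-chaperonin HSPE1 at 1.07. HSPA1A and HSPA1B, which are near-identical copies and may share reads, were at 0.85 and 0.65. 

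**Figure D5:**
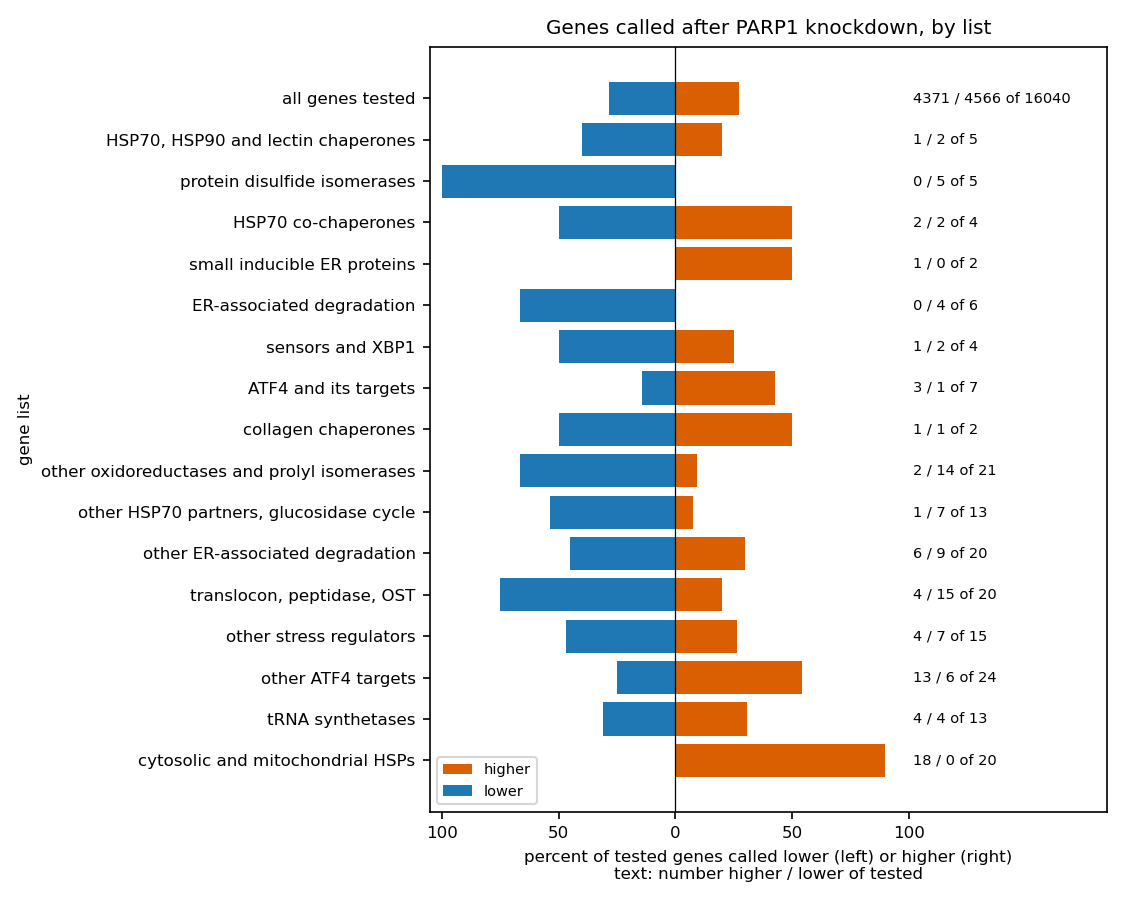
Percent of tested genes called lower (bars to the left) or higher (bars to the right) for all genes, for each role among the members and for the other lists, with the counts beside each bar. The disulfide isomerases reach 5 of 5 on the lower side and the heat shock genes outside the ER 18 of 20 on the higher side.

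Members whose exons overlap exons on the opposite strand could carry reads of both genes, because no source used here states the strand setting of the counting. Exonic bases were shared for 14 members in GENCODE release 29, of which 10 fell and 2 rose. Among the 21 members with no shared base 7 fell and 7 rose, which is near the share over all genes tested (28.5% lower, 27.3% higher). The largest shared portions were 31.6% of the exonic bases of DDIT3, with MARS and MBD6, 25.2% of PDIA6, with ATP6V1C2, and 18.9% of PDIA3, with ELL3 and other genes. The part of these overlaps in the changes was not tested. TRIB3, PPP1R15A, PDIA4, PDIA5, EDEM2 and XBP1 shared none.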

How the data were processed

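Polyadenylated RNA from 6 HK-2 libraries was sequenced with a stranded kit in paired-end mode, per the labels' protocols. The authors deposited whole-number read counts per gene, not normalized, and FPKM values per gene with up to 2 decimals. GRCh38 is the build, and TopHat2, edgeR and bcl2fastq are the tools, named per the submitters' processing notes. No source used here states the counting tool, its strand setting or the annotation.

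The count analysis used edgeR 4.0.16 under R 4.3.3. Its filterByExpr function kept 16040 of 30403 genes, and TMM factors scaled the libraries. The quasi-likelihood test, in its robust form, was Benjamini-Hochberg adjusted over all genes tested, with calls under 0.05. The fit was tested on simulated data. CPM values are TMM-scaled, with SD over 3 libraries. At these totals 3 counts correspond to 0.0914 to 0.123 CPM. Each library was counted as a replicate. Libraries of a group differed by more than sampling noise (chi-square per degree of freedom at least 2.54), which does not show that they are independent. The labels do not say whether they came from separate cultures, so the p-values reflect only the spread among these libraries, possibly a technical one.

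The members and lists were chosen with earlier results of these data known, and no set test was made. All members are named, with PARP1 and genes from up to 4 called genes of smallest p-value in each other list; exceptions are marked. Gene coordinates, lengths and GC content came from GENCODE release 29 (GRCh38), and promoter windows from RefSeq (GRCh38.p14). The length and GC offset used natural splines with 5 degrees of freedom and covered 99.2% of tested genes. Alternatives also used DESeq2 1.42.0 and limma 3.58.1, the latter on log2(FPKM + 1) and log2(FPKM + 0.1), which understates changes of low genes.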

Additional observations from a re-analysis of the deposited data

How the results depend on the processing

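The members, their counts in all and in the chaperone and ATF4 arms, PARP1 and the other genes named by rule were recomputed under 18 alternatives, or 17 for the 5 members that the stricter filter removed. The counts and medians of the other lists, HSP90AA1, and the promoter and antisense counts were not. Of the 35 members 25, among them 16 of the 17 that fell and 6 of the 9 that rose, kept their direction and their side of the threshold in each of these. The exceptions among called members were HYOU1, HSPA5, DNAJC3 and ATF6. The count of members called lower ranged from 17 to 19, and without single replicates from 17 to 18. The count called higher ranged from 6 to 10, with 6 reached without shCtrl replicate 3. In the chaperone and degradation arm the count called higher was 4, and leaving out single replicates gave 2 to 4, with 2 reached without shCtrl replicate 3. The ATF4 arm had 1 member called lower, and 2 with the length and GC offset, alone or together with the replicate block. Signs turned only for members that did not pass the main test: CALR to -0.031 with the length and GC offset, with or without the replicate block, and ATF4 to 0.027 on the log2(FPKM + 1) scale and 0.028 on the log2(FPKM + 0.1) scale. Without single replicates ATF4 ranged from -0.037 to 0.014, with 0.014 reached without shCtrl replicate 2. Whether replicate numbers pair the samples could not be decided, because all correlations of library deviations between the groups were small. Same-numbered libraries correlated at 0.04, -0.00 and 0.04. The same-numbered control was the best match for shPARP1 replicates 1 and 3, whereas shPARP1 replicate 2 correlated best with shCtrl replicate 3 (0.02). With the replicate number as a block 9 members were called higher and 19 lower, with 15 lower in the chaperone and degradation arm. With counts thinned to the smallest library total, 9 were higher and 18 lower. The widest intervals were those of low members, EDEM3, DNAJB9, ERN1, EIF2AK3 and CHAC1, and changes of EDEM3, ERN1 and CHAC1 within theirs were not detectable at this depth.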
